A study of Rattus norvegicus with 36 samples.

Results

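The hearts of 9-week-old rats that had run on a treadmill from week 5 to week 9 of life (early exercise, n = 7) were compared with hearts of rats of the same age that had stayed sedentary (n = 7). These 14 arrays were picked by their titles out of 36, with 1 array for each rat, and a probe was kept if its detection score reached 0.95 on at least 7 of the 36 arrays. All 14 rats were male Wistar Kyoto rats of the Control group, the offspring of sham-operated mothers with litters of normal size. Early exercise rats were killed 72 h after the last bout of running, and the whole heart, with atria as well as ventricles, was frozen and powdered. Brothers were spread over the treatment groups, but the labels do not give the litter, so brothers could not be matched. The other arrays came from rats killed at 24 weeks of age: 7 sedentary, 8 early exercise (trained in the same weeks of youth) and 7 later exercise rats (trained from week 20 to week 24).

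Regular running makes the heart muscle cell grow, chiefly through insulin-like growth factor, PI3 kinase and Akt, and growth of a cell needs more ribosomes and more contractile protein. Growth under a raised pressure load instead switches on genes of the fetal heart, such as those of the natriuretic peptides and of beta myosin. Adult heart muscle takes most of its energy from fatty acids burned in mitochondria, and endurance training is best known for raising mitochondrial capacity in skeletal muscle.

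Markers of the heart muscle cell were present throughout. All 12 cardiomyocyte markers with a probe were detected on all 14 arrays, as were 4 of 4 fibroblast, 5 of 5 macrophage and 4 of 5 endothelial markers. The lung epithelium genes Sftpc and Scgb1a1 were detected on none, as were Myh4 of fast skeletal muscle and Lep of adipocytes. Other markers of the same lists were detected. The adipocyte genes Cfd and Fabp4 were found on all 14 arrays, and Adipoq and Ucp1 on some. Tnnt3, Tnni2 and Actn3 of skeletal muscle, Msln of mesothelium and Alb of liver were also found on some. Mean raw signal had a median of 815 (470 to 1214) over the sedentary arrays and of 762 (613 to 962) over the early exercise arrays, with 9637 to 10244 and 9727 to 10105 probes detected. Neither measure differed beyond the spread between rats (two-sided exact permutation p = 0.773 and 0.647, 0.773 for both after adjustment). In whole-heart powder, fewer cells of a type and less RNA per cell cannot be told apart.

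Differences between early exercise and sedentary hearts were small, and none passed correction over all probes. Of 10956 probes kept, which cover 7904 genes with a symbol, 0 (0%) passed an adjusted p of 0.05 in limma, and the smallest adjusted p was 0.315. With chip as a block the smallest adjusted p was 0.166 and again no probe passed. Weighting the arrays by their quality let 16 probes pass, 13 higher and 3 lower. They passed only just, with a smallest limma adjusted p of 0.0485. At an unadjusted p of 0.05 or less 507 probes (4.63%) lay higher and 361 (3.29%) lower in early exercise hearts. Scaling to a common median in place of equal distributions gave a split of 598 higher and 86 lower, and the median of all probes moved to 0.05 on the log2 scale. Without sedentary rat 6 the counts were 308 and 212, and the smallest adjusted p was 0.982.

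The sizes were small as well. The median size of a probe's difference was 0.08 on the log2 scale, and the 95th percentile was 0.27. A positive difference stands for a higher signal in early exercise hearts, by the array labels. The study's text and the legend of its gene list give opposite directions for that list. A single probe, that of the secreted protein Wfdc21, differed by more than 2-fold. At p of 0.05 or less 118 probes (1.08%) had a ratio of early exercise to sedentary above the upper fold limit of the study's methods, and 18 (0.164%) a ratio below the lower limit of 0.75. These counts were 26 and 4 with no background correction, 275 and 9 with a common median, and 64 and 7 without sedentary rat 6. Sedentary hearts varied more than early exercise hearts, with a larger SD for 60.9% of probes (median SD 0.18 against 0.16).

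Among the genes that lay higher with the smallest p, Dynlt1 came first, which encodes a light chain of dynein, the motor that carries cargo along microtubules. Its log2 signal lay between 9.24 and 9.83 in sedentary hearts (median 9.65) and between 9.88 and 10.23 in early exercise hearts (median 10.11). All 7 early exercise hearts thus stood above all 7 sedentary hearts. The difference was 0.44 ± 0.10 (SE, n = 7 and 7), or 1.36 times the sedentary signal (limma adjusted p = 0.315), and it was 0.40, 0.51 and 0.46 on chips 1, 2 and 3. With array weights Dynlt1 narrowly passed the adjusted threshold.

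Genes of protein synthesis followed. Eef1b2, the subunit of elongation factor 1 that recharges it with GTP, ran from 11.72 to 12.27 in sedentary hearts (median 12.10) and from 12.26 to 12.57 in trained hearts (median 12.44). Trained rat 7, the lowest at 12.26, was the only trained heart that did not exceed every sedentary heart, and the ratio was 1.28 (log2 0.36 ± 0.09). Rpl31, a protein of the large ribosomal subunit, ran from 7.89 to 8.54 (median 8.39) and from 8.60 to 8.77 (median 8.67). Its groups did not overlap, and the ratio was 1.31 (log2 0.39 ± 0.10). Rpl22l1, a paralogue of ribosomal protein L22, stood at 1.4 times the sedentary signal (log2 0.49 ± 0.13), with 4 of 7 trained hearts above all sedentary hearts.

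Some genes that bind or repair DNA were also in that set, although the DNA repair list as a whole leaned little. Of its 22 measured genes 13 lay above 0, with a median of 0.05. At p of 0.05 or less 2 of them lay higher and 1 lower. Rpa3, the small subunit of the complex that coats single-stranded DNA, had 1.38 times the sedentary signal (log2 0.47 ± 0.12). Mgmt, which takes methyl groups off guanine in DNA, had 1.37 times (0.46 ± 0.12), and Inip, part of a complex that senses single-stranded DNA, had a difference of 0.32 ± 0.08. The small GTPase Rhoc, which acts on the actin skeleton, ran from 10.78 to 11.76 in sedentary and from 11.75 to 11.93 in trained hearts (ratio 1.29, log2 0.37 ± 0.10). Sedentary rat 6 was far below the others for Rhoc, at 10.78 against 11.42 in the next lowest, and the difference was 0.25 without it. Spsb2, a substrate receptor of a ubiquitin ligase, completed the set at 1.34 times (0.42 ± 0.11). All 10 genes of this set, with Mtch1 below, had a positive difference on each of the 3 chips, which hold the same arrays that put them in the set.

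The genes that lay lower with the smallest p included several of large proteins that load tRNA or handle ubiquitin. Eprs1, the enzyme that charges glutamate and proline tRNAs, ran from 8.38 to 9.35 in sedentary hearts (median 8.73) and from 8.10 to 8.55 in trained hearts (median 8.30). It stood at 0.714 times the sedentary signal (log2 -0.49 ± 0.12, limma adjusted p = 0.315), with 4 of 7 trained hearts below every sedentary heart. Usp9x, a deubiquitinase, ran from 7.10 to 7.67 (median 7.34) and from 6.60 to 7.32 (median 6.76). Only trained rat 5, at 7.32, reached into the sedentary range for Usp9x, and the ratio was 0.723 (log2 -0.47 ± 0.13). Cand1, which swaps the receptor subunits of cullin ubiquitin ligases, ran from 8.88 to 9.43 and from 8.49 to 9.03, a ratio of 0.75 (log2 -0.42 ± 0.11) with 6 of 7 trained hearts below all sedentary ones. Usp9x also narrowly passed the adjusted threshold with array weights.

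The rest of that set differed by ratios of 0.759 to 0.797 and were Fndc7, a fibronectin-repeat protein (0.759), the RNA helicase Dhx40 (0.762), Btd, the enzyme that frees biotin for reuse (0.772), the RNA-binding protein Larp4b (0.780), Asb14, a SOCS-box protein (0.789), the lipoprotein receptor relative Lrp12 (0.789) and Calcoco1, a coiled-coil protein (0.797). All 10 had a negative difference on each chip, and the chips hold the same arrays that put these genes in the set. Dhx40 was highest in sedentary rat 6 (9.13 against 8.64 in the next), and its log2 difference of -0.39 was -0.30 without that rat.

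**Figure D1:**
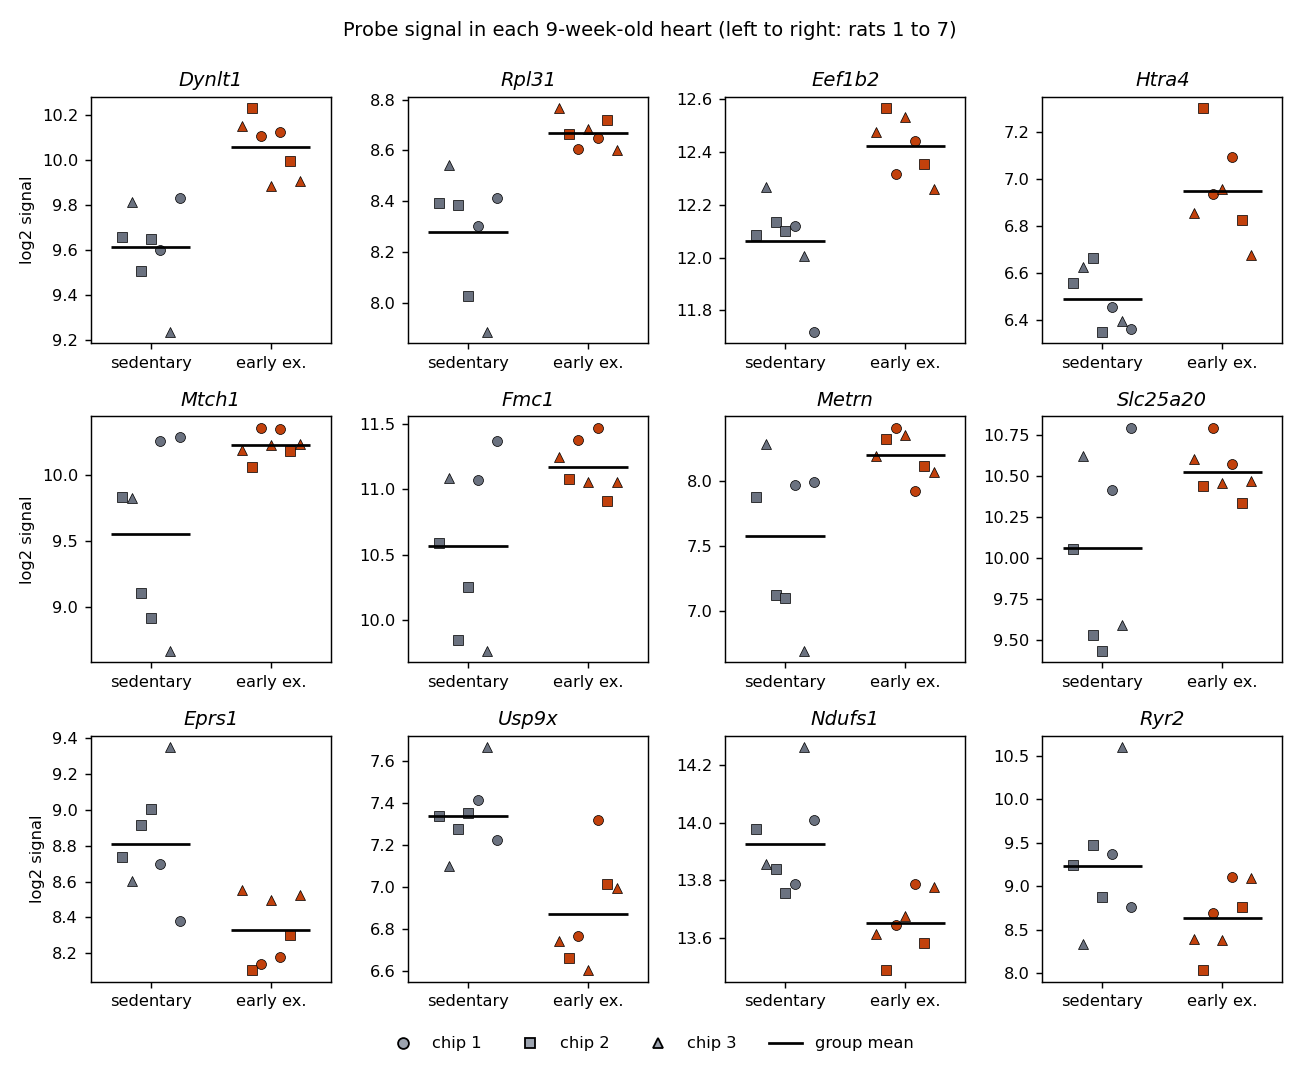
Log2 probe signal (y axis) of 12 genes in each heart, sedentary rats 1 to 7 and then early exercise rats 1 to 7 along x, with the marker giving the chip and the line the group mean. Dynlt1, Rpl31 and Htra4 have groups that do not overlap, while in Mtch1, Fmc1, Metrn and Slc25a20 sedentary rats 3, 4 and 6 lie below the other hearts.

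Groups without overlap were found for 11 probes that lay higher (0.1% of those tested) and 9 that lay lower (0.0821%), of which 8 and 5 carry a symbol. Besides Dynlt1 and Rpl31 the higher ones were Htra4, a secreted serine protease (6.35 to 6.66 in sedentary and 6.68 to 7.30 in trained hearts, ratio 1.38), Slc35d2, a carrier of nucleotide sugars (ratio 1.26), Car8, a relative of carbonic anhydrase without the enzyme activity (8.48 to 8.85 and 8.89 to 8.98, ratio 1.20), Mrto4, which helps to assemble the large ribosomal subunit (1.19), Reep3, which shapes the endoplasmic reticulum (1.15), and Sfr1, a helper of DNA recombination (1.11). Reep3 was dim and counted as detected in 3 of 7 sedentary and 7 of 7 trained hearts. The lower ones were Fabp1, the fatty acid binding protein of liver (6.01 to 6.59 and 5.72 to 5.97, ratio 0.809), Naa30, the catalytic subunit of an acetyltransferase that acts on protein starts (10.22 to 10.59 and 9.91 to 10.19, ratio 0.825), the autophagy receptor Tax1bp1 (0.829), the splicing regulator Hnrnph2 (0.860) and Adra2c, a receptor for noradrenaline (0.911). Adra2c lay near the detection limit, with 3 of 7 sedentary and 0 of 7 trained hearts detected, so its ratio is a comparison of dim signals. Fabp1 was dim as well, with trained values close to the array medians of 5.71 to 5.714 over all 22523 probes.

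Gene lists were read with each gene by its brightest probe, and of all 7904 genes 394 (4.98%) lay higher and 231 (2.92%) lower at p of 0.05 or less. Mitochondrial outer membrane and import genes lay mostly above 0. Of 28 measured, 20 lay above 0, 6 of them at p of 0.05 or less against 1 below 0, with a median difference of 0.05 against 0.00 for all genes. The mean of the list ran from -0.09 to 0.01 in sedentary and from 0.03 to 0.07 in trained hearts around the mean of the 14, so the groups did not overlap. Members were picked for the list with earlier results of these arrays known.

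Mtch1, a carrier-like protein of the outer mitochondrial membrane, had the largest ratio of the 10 higher genes with the smallest p, 1.6 (log2 0.67 ± 0.17, limma adjusted p = 0.315). Its signal was 9.83, 9.82, 9.10, 8.92, 10.25, 8.66 and 10.28 in sedentary rats 1 to 7. In early exercise rats it was 10.19, 10.06, 10.36, 10.22, 10.35, 10.18 and 10.23. The trained hearts were alike, and sedentary rats 3, 4 and 6 were low while rats 5 and 7 stood within the trained range. The difference was 0.08 on chip 1, which holds sedentary rats 5 and 7, and 0.84 and 0.97 on chips 2 and 3. With array weights Mtch1 narrowly passed the adjusted threshold.

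The same 3 sedentary hearts were the lowest of their group for several other genes that lay higher after training. Fmc1, needed in yeast for assembly of the ATP synthase, had 9.84, 10.25 and 9.76 in sedentary rats 3, 4 and 6 and 10.59 to 11.37 in the other sedentary rats, against 10.91 to 11.48 in trained rats (ratio 1.52, log2 0.60 ± 0.19). Slc25a20, the carrier that brings acylcarnitines into mitochondria, had 9.53, 9.43 and 9.59 in those rats and 10.06 to 10.80 in the rest, against 10.34 to 10.79 in trained hearts (ratio 1.38, log2 0.46 ± 0.17). Of 7 trained hearts 2 exceeded all sedentary hearts for Fmc1 and 0 for Slc25a20, so both genes had groups that overlapped. Metrn, a secreted neurotrophic factor, and Zswim8, a ubiquitin ligase receptor, were chosen after their values were seen for the same order of hearts, with ratios of 1.54 and 1.37. Timm17b and Dnajc19, parts of the import machinery of the inner membrane, did not follow that order: 6 of 7 trained hearts lay above all sedentary hearts for each, with ratios of 1.21 and 1.17.

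Cytosolic ribosomal protein genes lay slightly higher as a group. Of 56 measured, 50 lay above 0, 9 of them at p of 0.05 or less and 0 of the 6 below it, with a median of 0.10 (0.04, 0.12 and 0.15 on chips 1, 2 and 3). With the common median 55 of 56 lay above 0, 34 at p of 0.05 or less, with a median of 0.29. A length score of each array (the mean of very long transcripts minus that of these genes) was also used as a covariate. The median was then 0.03, but these genes are part of the score, so a smaller median is partly built in. Rpl7a (13.48 to 13.85 in sedentary and 13.68 to 13.82 in trained hearts), Rplp1 (13.47 to 13.85 and 13.78 to 13.93) and Rpl21 (13.31 to 13.88 and 13.69 to 13.92) each had a ratio of 1.15. Their groups overlapped, with 1 or more sedentary hearts as high as trained ones. Genes of the mitochondrial ribosome lay above 0 in 38 of 55 cases, 2 at p of 0.05 or less, with a median of 0.07. That median was 0.17 with the common median, 0.01 with the length score and 0.04 without sedentary rat 1. Cytosolic translation factors did not lean that way, with 14 of 30 above 0 and a median of -0.03, or 0.10 with arrays scaled to a common median and -0.01 without sedentary rat 6.

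Genes for ribosomal proteins and some translation factors start at a run of pyrimidines, and the 40 bases around the start (20 before and 20 from the start on) are shown for genes that lay higher, with Rpl7a, which also lay higher, as one whose window lacks the sequence searched. The sequences are those of the sense strand in RefSeq promoters of GRCr8, and capitals mark CTTTC or CTTTT wherever it lies in the window.
Rpl31, chr9:49143091-49143130, plus strand: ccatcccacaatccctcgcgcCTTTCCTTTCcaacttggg
Rplp1, chr8:71290853-71290892, minus strand: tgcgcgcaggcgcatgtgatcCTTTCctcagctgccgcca
Rpl21, chr12:13386134-13386173, minus strand: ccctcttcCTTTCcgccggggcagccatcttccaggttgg
Eef1b2, chr9:72074071-72074110, plus strand: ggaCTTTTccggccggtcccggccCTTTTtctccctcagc
Rpl7a, chr3:30637116-30637155, plus strand: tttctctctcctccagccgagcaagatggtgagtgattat
Within 10 bases of the start CTTTC or CTTTT lay on the sense strand of 24 of the 45 ribosomal protein promoters found for the 56 genes (53.3%) and of 1413 of all 33469 promoters (4.22%). On the other strand the shares were 0 of 45 and 4.47%. The 40 bases of Rpl7a hold neither sequence, although they open with a run of pyrimidines. Rpl7a had the same ratio as Rplp1 and Rpl21, whose 40 bases hold CTTTC. That of Rpl21 begins more than 10 bases before the start, outside the span counted here. A match describes the letters and does not show that a factor acts there.

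Very long transcripts ran the other way, with 15 of 16 below 0, 4 of them at p of 0.05 or less, and a median of -0.17. Their mean ran from -0.10 to 0.24 in sedentary and from -0.21 to 0.11 in trained hearts, so the groups overlapped. Members include Usp9x, Birc6, an inhibitor of cell death (ratio 0.769), and Ryr2, the channel that releases calcium from the sarcoplasmic reticulum. With the length score as a covariate the 507 and 361 probes at p of 0.05 or less became 386 and 329. What RNA length or RNA quality contributed to either group of genes was not tested.

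Ubiquitin ligases and deubiquitinases lay lower in 28 of 32 cases, 6 of them at p of 0.05 or less and 0 in the other direction, with a median of -0.10 (-0.12, -0.16 and -0.09 on chips 1, 2 and 3). The list mean ran from 0.011 to 0.11 in sedentary and from -0.11 to 0.008 in trained hearts, so the groups only just failed to overlap. Members of this list too were picked with earlier results of these arrays known. Besides Cand1, Usp9x and Birc6, Cul4a, a scaffold of a ubiquitin ligase, had 12.15 to 12.52 in sedentary and 11.93 to 12.31 in trained hearts, a ratio of 0.876. With the length score as a covariate the median was 0.00, and 5 of the 32, Usp9x and Birc6 among them, also stand among the very long transcripts. Proteasome subunits, by contrast, split evenly at 18 of 37 above 0 with a median of 0.00, or 0.12 with arrays scaled to a common median.

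Energy metabolism showed a slight downward lean outside the respiratory chain, and its direction depended on the scaling. Citric acid cycle and pyruvate dehydrogenase genes lay below 0 in 19 of 27 cases, 5 at p of 0.05 or less, with a median of -0.07, which was 0.06 with arrays scaled to a common median. Dld, the dehydrogenase shared by the large 2-oxoacid complexes, ran from 12.52 to 13.44 in sedentary and from 12.65 to 12.85 in trained hearts (ratio 0.835). Idh2, the mitochondrial isocitrate dehydrogenase, ran from 13.90 to 14.75 and from 13.98 to 14.21 (ratio 0.818), and Dlat, the acetyl transferase of pyruvate dehydrogenase, had a ratio of 0.847. For Dld and Idh2 every trained heart lay inside the sedentary range, which was several times as wide. Sucla2, a subunit of succinate-CoA ligase, had 4 of 7 trained hearts below every sedentary one (13.27 to 13.63 and 13.20 to 13.34, ratio 0.870).

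Genes of fatty acid uptake and oxidation lay below 0 in 30 of 41 cases (median -0.06, or 0.06 with the common median and -0.09 without early exercise rat 5), 2 of them at p of 0.05 or less and 1 gene, Slc25a20, at that p above 0. Acads, which starts the breakdown of short-chain fatty acids, ran from 10.51 to 10.76 in sedentary and from 10.30 to 10.52 in trained hearts, with 6 of 7 below all sedentary hearts (ratio 0.857). Cpt1a, the form of the carnitine transferase best known from liver, had a ratio of 0.851. Glucose and glycogen genes lay below 0 in 21 of 26 cases (median -0.09, or 0.01 with the common median and -0.06 without early exercise rat 2), 3 at p of 0.05 or less: the glycogen phosphorylase Pygb (ratio 0.833), Phka1, which switches that enzyme on (0.848), and the phosphofructokinase Pfkp (0.894).

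The respiratory chain itself did not lean as deposited. Complex I genes had a median of 0.00 with 12 of 26 above 0, and genes of complexes II to V a median of 0.00 with 16 of 30 above 0, while with the common median these were 0.18 (25 of 26) and 0.19 (29 of 30). Ndufs1, an iron-sulfur subunit of complex I, lay lower in trained hearts (13.75 to 14.26 and 13.49 to 13.79, ratio 0.826), with 5 of 7 below all sedentary hearts. Sdha, which serves both the citric acid cycle and complex II, had a ratio of 0.880 and the complex III gene Uqcrc1 one of 0.896, which was above 1 with the common median. Genes that fuse, split and clear mitochondria lay below 0 in 13 of 18 cases (median -0.12, or -0.01 with the common median and -0.08 without sedentary rat 6), with 3 at p of 0.05 or less: Immt, which shapes the cristae (13.12 to 14.07 and 13.26 to 13.48, ratio 0.814), and the fission genes Dnm1l (0.833) and Mff (0.845). For Immt the 7 trained hearts again lay inside the sedentary range.

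**Figure D2:**
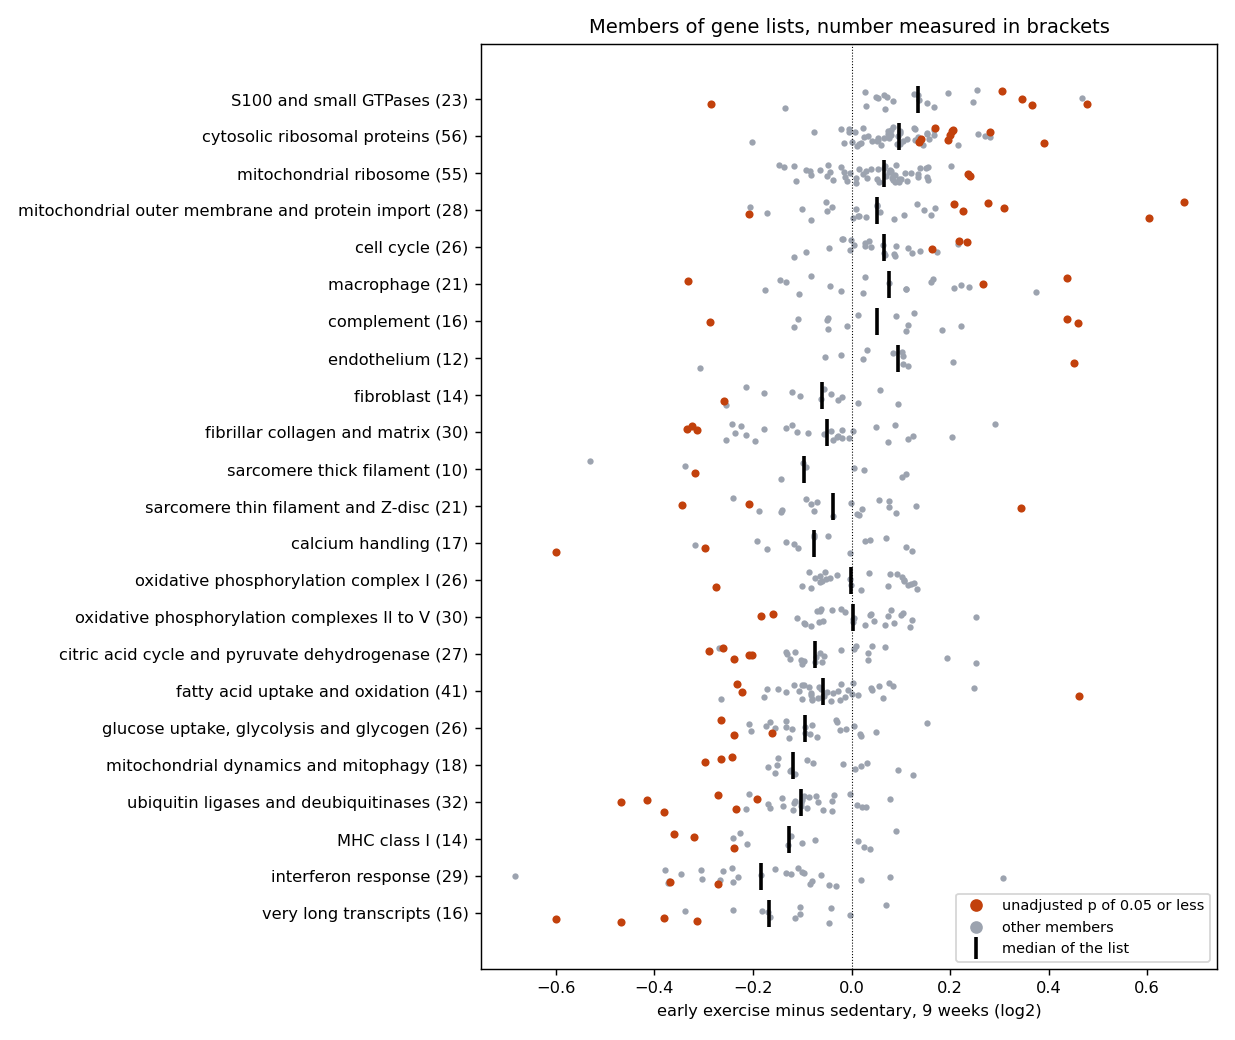
Difference between early exercise and sedentary hearts at 9 weeks (x axis, log2) of each measured member of 23 gene lists (y axis, number measured in brackets), with dots in colour for members with an unadjusted p of at most 0.05, and a bar at the list's median. Ribosomal, import and small GTPase genes sit mostly to the right of 0, and ubiquitin, interferon and very long transcript genes mostly to the left, while after scaling to a common median the energy and sarcomere lists moved to the right.

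Genes tied to growth of the heart muscle had medians near 0. Of 12 genes of the fetal programme 5 lay above 0 and 7 below, with a median of -0.02 (0.09 with the common median, -0.06 without sedentary rat 5), and 1 reached a p of 0.05 or less. Nppa, the atrial natriuretic peptide, ran from 13.64 to 14.28 in sedentary and from 13.41 to 14.15 in trained hearts (log2 -0.13 ± 0.12), and Myh7, the beta myosin chain, from 14.26 to 14.86 and from 14.55 to 14.92 (0.11 ± 0.11). Neither gene separated the groups. Genes of insulin-like growth factor, PI3 kinase and Akt signalling had 0 of 18 at p of 0.05 or less in either direction and a median of -0.03 (0.02 with the common median, -0.05 without early exercise rat 6), with Akt1 itself at -0.16 ± 0.15. The mTOR pathway had 12 of 19 above 0 (14 with the common median) and 1 at that p each way. Its median was 0.03, or 0.11 with the common median and -0.004 without sedentary rat 4.

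Contractile genes gave single differences in both directions. Thick filament genes lay below 0 in 6 of 10 cases, 1 at p of 0.05 or less (median -0.10, or 0.06 with the common median and -0.03 without sedentary rat 7), with Myom2, a protein of the M band, at 0.802 times the sedentary signal. Trim55, a ubiquitin ligase of the sarcomere, had a ratio of 0.692, and its difference was 0.45 on chip 1 and -0.88 and -0.96 on chips 2 and 3. Myh6, the alpha myosin chain and the main one of the rat ventricle, ran from 14.45 to 14.77 and from 14.14 to 14.86 (log2 -0.09 ± 0.10, or 0.15 with the common median), which does not separate the groups. Among thin filament and Z-disc genes, 9 of 21 above 0 (15 with the common median) and 3 at p of 0.05 or less, Ldb3, a Z-disc scaffold, had a ratio of 0.788 (11.59 to 12.31 and 11.35 to 11.95) and Myoz1, a calcineurin-binding protein of the Z disc, 1.27 (6.19 to 6.84 and 6.58 to 7.33). Their chip values were -0.00, -0.49 and -0.48 for Ldb3 and 0.22, 0.53 and 0.23 for Myoz1.

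Calcium handling genes lay below 0 in 12 of 17 cases (median -0.08, or 0.01 with the common median and -0.12 without sedentary rat 4), 2 at p of 0.05 or less. Cacna2d1, a subunit of the L-type calcium channel, had a ratio of 0.813, with 5 of 7 trained hearts below all sedentary hearts. Both detected probes of Ryr2 lay lower, at 0.66 and 0.647 times the sedentary signal (log2 -0.60 ± 0.26 and -0.63 ± 0.25), and another, dim probe lay at 1.04. For the brighter probe sedentary rats 1 to 7 had 9.25, 8.34, 9.48, 8.87, 9.37, 10.60 and 8.77, and trained rats 8.40, 8.03, 8.70, 8.38, 9.11, 8.76 and 9.10. Sedentary rat 6 was the highest heart with both probes, and without it the differences were -0.37 and -0.43, with limma p of 0.13 and 0.082. Gap junction and intercalated disc genes lay below 0 in 9 of 9 cases (median -0.06), none at p of 0.05 or less, and 6 of the 9 lay above 0 with the common median.

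Signalling genes of the S100 and small GTPase list lay higher in 21 of 23 cases (median 0.13, with 0.13, 0.14 and 0.11 on chips 1, 2 and 3), 4 of them at p of 0.05 or less against 1 in the other direction. The list mean ran from -0.13 to 0.00 in sedentary and from 0.04 to 0.15 in trained hearts, without overlap, and its members too were picked with earlier results known. Gng10, a gamma subunit of G proteins, ran from 9.27 to 9.79 and from 9.74 to 10.20, with 6 of 7 trained hearts above all sedentary ones (ratio 1.39, log2 0.48 ± 0.14). S100a11, a calcium-binding protein, had a ratio of 1.27 (11.89 to 12.60 and 12.40 to 12.84), and Rhoa, which steers the actin skeleton, one of 1.24 (11.11 to 11.98 and 11.43 to 12.09). Rras2, a relative of Ras, was the exception at 0.820. With the length score as a covariate the median of the list was 0.03.

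Interferon response and MHC class I genes lay mostly below 0, with hearts that differed widely within both groups. Of 29 interferon response genes 26 lay below 0, 2 at p of 0.05 or less, with a median of -0.18 (-0.12 with the common median) and -0.42, 0.00 and -0.29 on chips 1, 2 and 3. Their mean ran from -0.21 to 0.40 in sedentary and from -0.76 to 0.42 in trained hearts, where rats 4 and 5 were the lowest at -0.43 and -0.76. Without early exercise rat 5 the median was -0.09, and without sedentary rat 1 it was -0.28. Stat2, a transcription factor that carries the interferon signal, had 7.61 to 8.02 in sedentary and 7.04 to 7.96 in trained hearts, with 5 of 7 below all sedentary hearts (ratio 0.774, log2 -0.37 ± 0.16). Mx1, an antiviral GTPase, had the largest downward difference of all probes, -0.68 ± 0.36, but trained rat 5 alone stood at 8.10 against 9.53 to 11.90 in the other trained hearts, and the difference was -0.31 without it.

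The MHC class I genes lay below 0 in 10 of 14 cases, 3 at p of 0.05 or less, with a median of -0.13, which was -0.07 without sedentary rat 6 and -0.27 without sedentary rat 1. RT1-A1, a class I heavy chain, ran from 12.70 to 13.45 and from 12.47 to 13.01 (ratio 0.801, log2 -0.32 ± 0.10), and was lower on all 3 chips (-0.24, -0.23 and -0.49). RT1-S3, another class I gene, had a ratio of 0.779 with 9.86 in its lowest trained heart. Genes of this family are near copies of each other, so a probe may read more than its own gene. MHC class II genes had 0 of 7 at p of 0.05 or less.

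Stretches of 4 interferon response promoters that hold the interferon element are shown, since these genes lay lower together. Capitals mark GAAA, any 2 bases and GAAA again, or the reverse complement (TTTC, any 2 bases, TTTC), and the sequences follow the gene's strand in RefSeq promoters of GRCr8.
Ifi27, chr6:128355118-128355177, plus strand, from base -194 relative to the start: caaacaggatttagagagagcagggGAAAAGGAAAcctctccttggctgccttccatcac
Irf7, chr1:205800068-205800107, minus strand, from base -84 relative to the start: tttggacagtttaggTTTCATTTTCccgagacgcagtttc
Tap1, chr20:4668640-4668679, minus strand, from base -136 relative to the start: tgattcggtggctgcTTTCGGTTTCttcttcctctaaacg
Gbp2, chr2:234005681-234005720, plus strand, from base -46 relative to the start: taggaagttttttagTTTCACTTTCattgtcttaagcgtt
On either strand the element lay in 17 of the 23 promoters found for the 29 genes (73.9%) and in 1312 of all 33469 (3.92%), each promoter reaching from 250 bases before to 50 bases after the start. Of the 17 genes with it 16 lay below 0 (median -0.13), as did 6 of the 6 without it (median -0.24). Mx1 and Stat2 are among the genes whose window has no match. Ifi27, an interferon-induced mitochondrial protein, had a ratio of 0.828 (12.88 to 13.84 in sedentary and 12.61 to 13.45 in trained hearts), Tap1, the peptide pump of antigen presentation, 0.769, and Irf7, a transcription factor of the interferon response, 0.774. Trained rat 5 was the lowest heart for Ifi27 and for Irf7, at 12.61 and 8.55.

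Stromal and blood cell genes gave differences in single genes and small leans of some lists. Macrophage genes lay above 0 in 13 of 21 cases (median 0.08, or -0.08 with the length score and 0.02 without early exercise rat 2), 2 at p of 0.05 or less against 1 below 0, led by C1qb, a chain of the first complement component made by tissue macrophages, at 9.83 to 11.14 in sedentary and 10.59 to 11.36 in trained hearts (ratio 1.35, log2 0.44 ± 0.15). Neutrophil and mast cell genes lay above 0 in 6 of 7 cases (median 0.07, or 0.11 without early exercise rat 5), 1 at p of 0.05 or less, and T, NK and B cell genes in 7 of 11 (5 with the common median), 0 at that p. The complement list had 9 of 16 above 0 with a median of 0.05, which was -0.05 without early exercise rat 1. Its members went both ways: C1s, a protease of the classical pathway, ran from 12.06 to 12.51 in sedentary and from 11.84 to 12.36 in trained hearts (ratio 0.820), on chips 1 to 3 at -0.50, -0.34 and -0.09. Fibroblast genes lay below 0 in 11 of 14 cases (median -0.06, or 0.05 with the common median and -0.10 without sedentary rat 7). Pdgfra, a growth factor receptor of fibroblasts, had a ratio of 0.835. Fibrillar collagen and matrix genes lay below 0 in 22 of 30 cases, 3 at p of 0.05 or less and 0 in the other direction. Their median was -0.05, or 0.04 with the common median and -0.11 without sedentary rat 6. On chips 1, 2 and 3 it was -0.26, -0.09 and 0.08. The matrix genes Col14a1 (0.799) and Thbs2 (0.793) had 5 of 7 trained hearts each below all sedentary hearts. Endothelial genes lay above 0 in 9 of 12 cases (median 0.09), with Egfl7, a secreted endothelial factor, at 1.37 (8.10 to 9.14 and 8.82 to 9.45).

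Genes of the cell cycle lay above 0 in 19 of 26 cases (median 0.06, with 0.00, -0.01 and 0.20 on chips 1, 2 and 3), 3 at p of 0.05 or less. Early exercise rat 7 had a list mean of 0.18 against at most 0.03 in the other trained hearts, and without it the median was 0.04. The 3 genes were Hmgb2, a chromatin protein of dividing cells (ratio 1.18), Tyms, which makes thymidylate (1.16), and Kif11, a spindle motor (1.12), which was detected in 0 of 7 sedentary and 4 of 7 trained hearts. Transcription regulators associated with training had 8 of 17 above 0, with 2 below 0 at p of 0.05 or less: Klf15, a regulator of fuel use in heart and muscle (8.99 to 9.71 and 8.82 to 9.26, ratio 0.813), and the thyroid hormone receptor Thra (0.878). Angiogenesis, hypoxia, immediate early and circadian clock lists each had 0 members at that p in either direction.

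Several hearts stood apart by genes of tissue other than ventricular muscle. Early exercise rat 1 held the highest adipocyte signals: Scd, a fatty acid desaturase, was 12 there against 6.02 to 8.16 in the other trained hearts, and Car3, a carbonic anhydrase of fat and slow muscle, 11.6 against 7.66 to 9.20. The adipocyte list was above 0 for 9 of 10 genes, with a median of 0.10, which was 0.04 without that rat. Cfd, complement factor D or adipsin, ran from 9.69 to 10.21 in sedentary and from 10.14 to 11.11 in trained hearts, with 6 of 7 trained hearts above all sedentary ones (ratio 1.37, log2 0.46 ± 0.15, or 0.36 without rat 1). Adipoq, a hormone made by fat cells, was 6.81 in rat 1 and 5.59 to 5.87 in the other trained hearts, and Lep was detected on no array. How far fat tissue on the heart bears on Cfd was not tested.

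Early exercise rat 6 held the highest fast skeletal muscle signals, with the troponins Tnnc2 at 9.999, Tnni2 at 7.41 and Tnnt3 at 7.23 against at most 8.21, 6.14 and 5.89 in the other trained hearts. Without it the median of that list went from 0.16 to -0.02, and Myh4 was detected on no array. Myl7, the atrial regulatory light chain, was 13.35 in sedentary rat 7 and 12.09 in early exercise rat 6 against at most 11.42 in any other heart. Early exercise rat 5 had the highest Alas2, the enzyme that starts haem synthesis in red cell precursors, at 10.13, together with the lowest interferon signals.

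Wfdc21, a secreted protein with a protease inhibitor fold, was 2.45 times the sedentary signal on average (log2 1.29 ± 0.64, limma adjusted p = 0.632). Sedentary rats 1 to 7 had 6.31, 8.16, 6.15, 6.29, 6.12, 6.47 and 10.43, and early exercise rats 9.82, 6.82, 7.29, 9.05, 9.99, 9.25 and 6.74. The groups overlapped fully, since the highest single heart was sedentary. The mesothelial gene Msln was highest in the same hearts, with 8.34 in sedentary rat 7 and 7.02, 7.41, 7.66 and 7.86 in trained rats 1, 4, 5 and 6, against 5.63 to 6.47 in the others. Krt19, a keratin of simple epithelia and mesothelium, followed the same order with 7.70 in sedentary rat 7 and 6.54 to 7.13 in those trained rats. Sftpc and Scgb1a1 of lung were detected on no array, and what the outer lining of the heart or attached tissue adds to Wfdc21 was not tested.

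**Figure D3:**
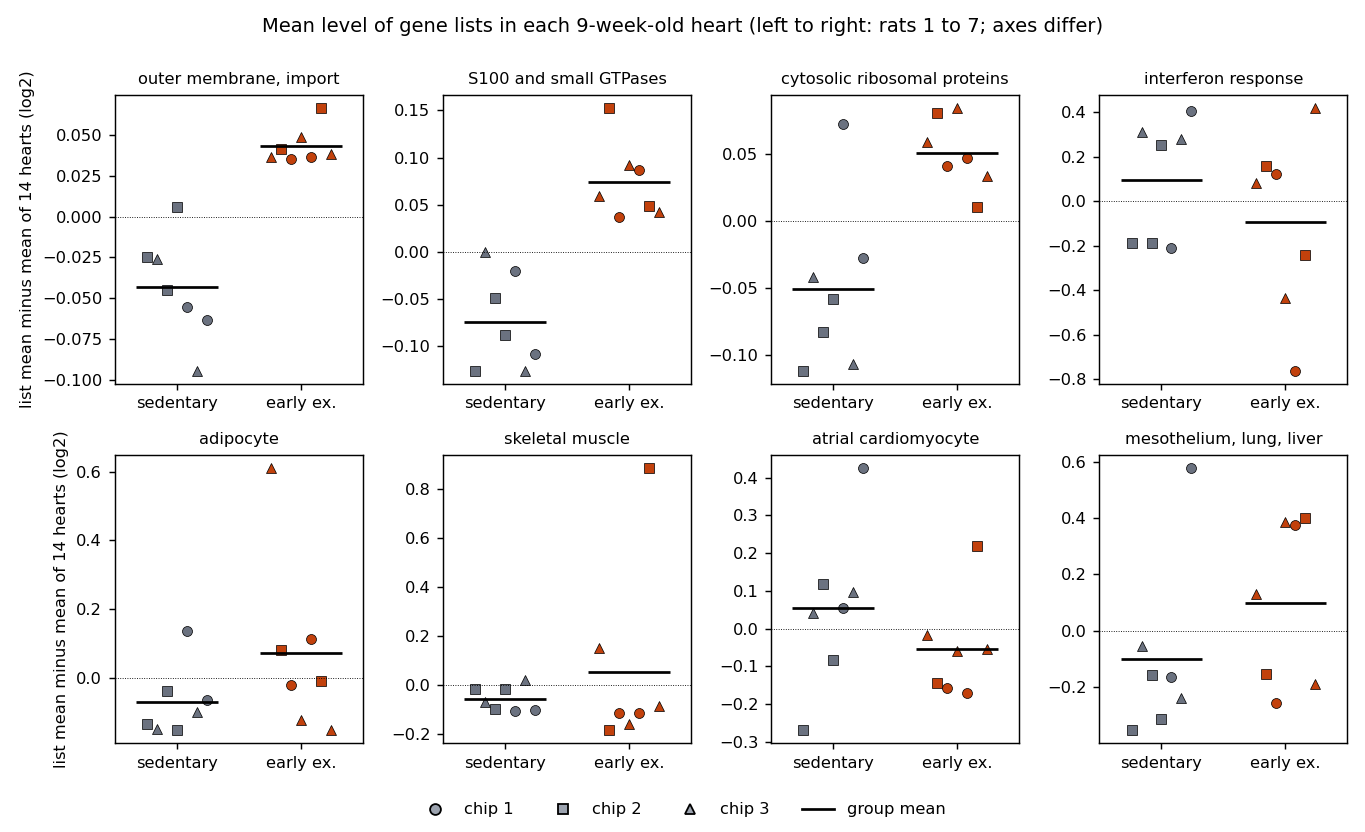
Mean log2 level of 8 gene lists in each 9-week-old heart (y axis, relative to the mean of the 14 hearts; axes differ), rats 1 to 7 of each group along x, with the marker giving the chip and the line the group mean. The import and the S100 and small GTPase lists separate the groups. In the adipocyte and skeletal muscle lists single hearts (early exercise rats 1 and 6) lie far from the rest. Early exercise rat 5 is lowest in the interferon list (-0.76, next rat 4 at -0.43). Sedentary rat 7 is highest in the mesothelial list (0.58, with a trained heart at 0.40).

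A set of 22 probes had been picked earlier on these same arrays for this comparison, so its direction is no independent evidence. Of these, 19 lay above 0 and 3 below, 17 and 3 of them at p of 0.05 or less, with ratios up to 1.6. Those with a current symbol were Mtch1, Fmc1, Gng10, Slc25a20, Cfd, Dynlt1, C1qb, Rhoc, Eef1b2, S100a11, Ryr2 on the lower side, and 2 genes not yet named: Sharpin, a subunit of a ligase that builds linear ubiquitin chains (9.41 to 10.28 and 10.11 to 10.69, ratio 1.31), and Srp19, part of the signal recognition particle (10.64 to 11.84 and 11.67 to 11.95, ratio 1.29). A probe that carries no symbol in the reference, listed as the pacemaker channel gene Hcn2, had 0.657 times the sedentary signal. With Srp19 and Slc25a20 the sedentary spread was wide, with SDs of 0.43 and 0.56 against 0.11 and 0.15 in trained hearts.

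The study ran real-time PCR on hearts of 24-week-old rats, of the Control group and of groups with restricted growth. Its PCR values therefore do not bear on the comparison at 9 weeks. On the 9-week arrays the genes chosen for that PCR gave small differences. Rhoa was the only one at p of 0.05 or less (log2 0.31 ± 0.14). Spp1, the matrix protein osteopontin, differed by -0.04 ± 0.45 with hearts between 6.56 and 9.05, and Ckm, the muscle creatine kinase, by 0.05 ± 0.10. Sod3, the extracellular superoxide dismutase, differed by 0.04 ± 0.12, Cox4i1, a subunit of cytochrome oxidase, by 0.00 ± 0.11, and Actb, the cytoplasmic actin often used as a reference gene, by -0.10 ± 0.11. These 5 genes had overlapping groups, and their standard errors cover 0.

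The response to training at 9 weeks was compared with the response to later training at 24 weeks, from week 20 to 24, each against sedentary rats of its own age. The 2 comparisons share no arrays. Their difference passed an adjusted p of 0.05 for 14 probes above 0 (0.128%) and 2 below 0 (0.0183%), and 11 of the 16 carry a symbol. Rnf125, a ubiquitin ligase, came first: it differed by 0.21 ± 0.10 after early training at 9 weeks and by -0.56 ± 0.10 after later training, a difference of 0.77 ± 0.14 (limma adjusted p = 0.028). Its signal was 7.97 to 8.50 in sedentary and 8.25 to 8.61 in trained hearts at 9 weeks, and 8.27 to 8.75 and 7.40 to 8.15 at 24 weeks. At 9 weeks the groups overlapped, and at 24 weeks they did not.

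Among the probes with a symbol Bmpr2, Itga1 and Acvr2b had the largest differences. Bmpr2, a receptor for bone morphogenetic proteins, had -0.18 ± 0.16 at 9 weeks and -1.32 ± 0.16 after later training (difference 1.14 ± 0.23, adjusted p = 0.035). Itga1, an integrin chain that binds collagen, had -0.09 ± 0.16 and -1.20 ± 0.16, and Acvr2b, a receptor for activins and myostatin, 0.24 ± 0.13 and -0.68 ± 0.13. Add3, an adducin of the membrane skeleton, had 0.02 ± 0.14 and -0.89 ± 0.14, the SUMO protease Senp6 -0.01 ± 0.11 and -0.71 ± 0.11, the polarity kinase Mark2 0.19 ± 0.09 and -0.42 ± 0.09, and Tab2, an adaptor of inflammatory kinase signalling, 0.06 ± 0.08 and -0.45 ± 0.08. Prcc, a nuclear protein linked to splicing, and Fbxl20, a ubiquitin ligase receptor, completed the upper side with differences of 0.46 and 0.59. Npl, which breaks down sialic acid, went the other way, at -0.31 ± 0.12 at 9 weeks and 0.43 ± 0.12 after later training (difference -0.74 ± 0.16, adjusted p = 0.046).

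Later exercise arrays were dim before normalization, with a mean raw signal of 315 to 709 against 715 to 1307 in sedentary rats of 24 weeks. These ranges do not overlap, so brightness and later training cannot be fully told apart here. With array brightness as a covariate, an alternative chosen after seeing the data, 0 probes passed and these 11 genes had an adjusted p of 0.376 to 0.473, although each kept its direction (Bmpr2 0.92, Rnf125 0.63). With chip as a block 59 probes passed. Against early training read at 24 weeks, 0 probes (0%) passed an adjusted p of 0.05, and the smallest limma adjusted p was 0.999. Of the 10956 probes tested, 334 had an unadjusted p of 0.05 or less.

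**Figure D4:**
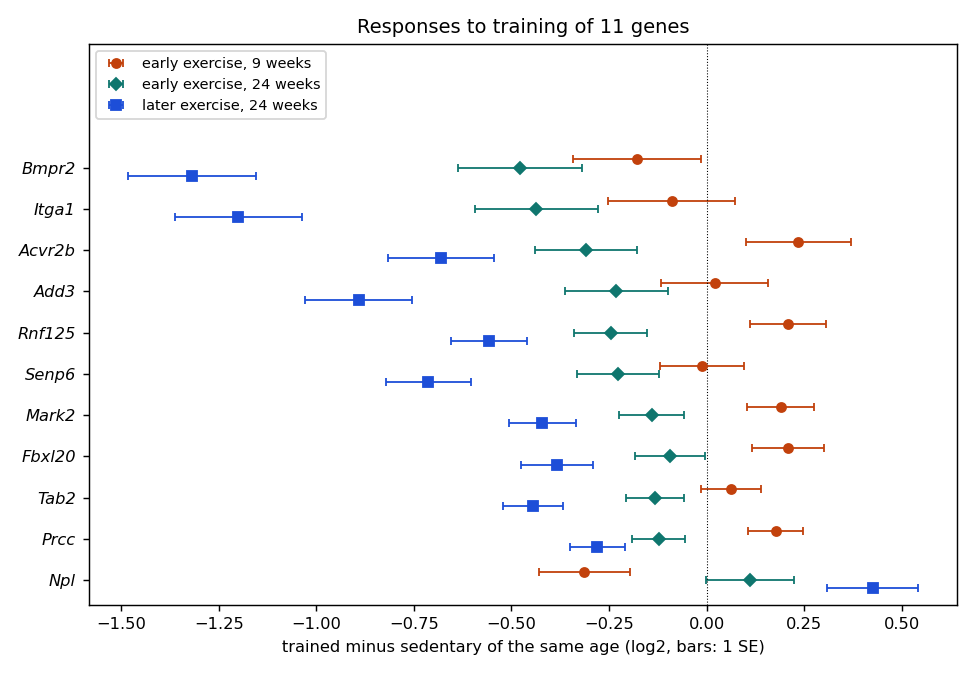
Log2 difference between trained and sedentary hearts of the same age (x axis, bars 1 SE) for the 11 genes whose response at 9 weeks differed from the later training response, with early training at 9 weeks, early training at 24 weeks and later training at 24 weeks as separate markers. At 9 weeks the points lie between -0.31 and 0.24, after later training between -1.32 and 0.43, and early training read at 24 weeks, which shares its sedentary rats with later training, between -0.48 and 0.11.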

How the data were processed

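Heart RNA of 36 male Control rats was measured on Illumina rat expression beadchips, 1 array per rat. The deposited signal intensity is the scanner software's summary per probe, with no background correction or normalization. Each intensity comes with a deposited detection score, which the header calls a p-value although it rises with the signal, so that it was read as 1 minus the detection p. In the methods the authors corrected the background, stabilized the variance and took log2 with lumi, ran an analysis of variance in Partek, and called genes at an unadjusted p up to 0.05 with a fold under 0.75 or over 1.25. The deposited log2 table, used here, has column medians of 5.71 to 5.714 and equal distributions, and the submitters' processing notes name R 3.2.2 and limma 3.24.15. Variance-stabilized values were not used here. Quantile normalization of this kind hides shifts shared by most genes, and quiet probes are compressed toward the background.

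Of 22523 probes, 10956 passed the detection filter and 8038 of these carry 1 gene symbol. With limma 3.58.1 (R 4.3.3) a model holding the 5 groups was fitted to the 36 arrays, with moderated variances. P was two-sided, with the Benjamini-Hochberg adjustment across every kept probe. Differences are early exercise minus sedentary means on the log2 scale, and ratios are taken from them. Arrays were few, which limits the precision, and nothing beyond 1 rat per array is stated of repeats. Chip is that of the labels, 3 chips of 12 arrays with both groups on each, where the methods give fewer arrays per beadchip. The fit was tested on simulated data.

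The members and the 59 gene lists were chosen with earlier results of these data known. The rule for named genes took the 10 probes in each direction with the smallest p past the fold limits (below 0.80 where fewer than 10 passed 0.75), up to 8 in each direction whose groups do not overlap, the 4 members of a list with the smallest p, genes measured by real-time PCR, the study's own list and cell type markers. Metrn, Zswim8, Scd, Car3, Tnnc2, Wfdc21, Irf7 and the genes of the difference between responses were chosen after their values were seen, and some genes that the rule covers are not described. Each gene entered a list by its brightest probe, and lists were described by counts and medians with no test. Promoters came from RefSeq (GRCr8, 250 bases before to 50 after the start).

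Alternatives were the intensity values processed anew (normexp with an offset of 16 and quantile normalization, the same without background correction, or scaled to a common median), no detection filter, only probes detected on all 14 arrays, chip or replicate number as a block, only the 14 arrays, no moderation, a length score or array brightness as a covariate, array weights, other fold limits and each rat left out in turn. For the difference between responses, brightness and length score were added after seeing the data.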

Additional observations from a re-analysis of the deposited data

Results flagged for a closer look

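Single hearts lay far from the rest of their group in 21 of 258 groups of 7 examined (8.14%), 8 of them sedentary and 13 early exercise. Chance marks about 1 in 20 groups, but this share is no test, since Scd, Car3 and Tnnc2 were chosen after their values were seen and several of the genes mark the same heart. Each value here is the gap between the extreme heart and its nearest neighbour as a share of the group's range. Sedentary rat 6 was lowest for Rhoc (0.649) and Prcc (0.581) and highest for Dhx40 (0.581) and the second Ryr2 probe (0.679). Sedentary rat 7 was highest for Msln (0.69) and Krt19 (0.626), sedentary rat 5 lowest for Slc35d2 (0.645) and sedentary rat 4 highest for Kif11 (0.57). Early exercise rat 1 was highest for Adipoq (0.773), Scd (0.642) and Car3 (0.61), and early exercise rat 6 for the skeletal troponins Tnnt3 (0.81), Tnni2 (0.794) and Tnnc2 (0.653). Early exercise rat 5 was highest for Sfr1 (0.701), Sdha (0.748) and Alas2 (0.693), and early exercise rat 2 for Rpl21 (0.66). Early exercise rat 3 was lowest for Calcoco1 (0.769) and Hnrnph2 (0.755), and early exercise rat 7 for Gstp1 (0.631), a glutathione transferase with a log2 difference of 0.33.

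The response at 9 weeks differed from the later training response, by the test of the difference itself, for 11 genes with a symbol. On the log2 scale the difference was 0.77 for Rnf125, 1.14 for Bmpr2, 0.91 for Add3, 0.61 for Mark2, 1.11 for Itga1, 0.92 for Acvr2b, 0.51 for Tab2, 0.70 for Senp6, 0.46 for Prcc, 0.59 for Fbxl20 and -0.74 for Npl. None of these passed with array brightness as a covariate, which cannot be fully told apart from later training on these arrays.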

How the results depend on the processing

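The count of 0 probes past an adjusted p of 0.05 held under every alternative except array weights, which gave 16 (smallest limma adjusted p 0.0485). Array weights gave 1542 probes at an unadjusted p of 0.05 or less against 868. That count was 1307 with no detection filter and ran from 520 (without sedentary rat 6) to 1157 with single rats left out. Probes at that p above the upper fold limit, 118 in number, were 26 with no background correction, 275 with a common median and 64 to 185 with single rats left out (64 without sedentary rat 6, 178 and 185 without sedentary rats 2 and 7). Those below 0.75, 18 in number, were 4, 9 and 7 to 50 (7 without sedentary rat 6, 30 to 50 without sedentary rats 1, 2, 5 and 7 or early exercise rats 3 and 7), and 110 with the length score and 87 with the limit at 0.80. The replicate block left 0 probes past the adjusted threshold (smallest adjusted p 0.262). It gave 528 higher and 431 lower at p of 0.05 or less and changed no call, and the numbers do not pair the rats, since same-numbered rats correlated at -0.26 to 0.315 and 1 of 7 matched its own number best. Of 3010 values for 116 genes and probes under these settings 2982 kept their direction. Many of these genes were named for a small p or for separate groups on the same arrays that the settings refit. Kept directions are therefore no independent evidence. With the common median Uqcrc1 turned to 0.041, Myh6 to 0.15, Nppa to 0.057 and Actb to 0.10. With the length score Dlat turned to 0.014, Akt1 to 0.039, Sod3 to -0.20, Cox4i1 to -0.11 and Actb to 0.018. Cox4i1 also turned with chip as a block (-0.0048), the brightness covariate (-0.0022) and array weights (-0.050). With single rats left out Cox4i1 ran from -0.060 to 0.065, Spp1 from -0.27 to 0.18, Sod3 from -0.013 to 0.10 and Ckm from -0.00093 to 0.10. The 16 probes whose response differed from later training were 59 with chip as a block, 0 with brightness and 15 with the length score, the last pair added after seeing the data. The cause of these changes was not tested.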
